A study of Rattus norvegicus with 9 samples.

Results

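Ccr7, Ccr4, Ccr6, Ccr9, Cxcr3, Cxcr4, S1pr1 and Selplg are surface proteins that direct T cells between blood, lymphoid organs and tissue. They are described here in CD4+ T cells of rat blood. The 8 genes were taken by name: reference transcripts carrying the gene's name were summed with assembled transcripts of loci that hold no other name. They were 8 of 37534 gene units in the deposited tables. Of these 8, 6 were among the 14485 units that were tested, those averaging 1 TPM or more. TPM is StringTie's abundance of a transcript, scaled for its length and for the library total. Ccr9 averaged less, and Selplg was listed at 0 by this rule, since its locus also carries the name of another gene.

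The 9 libraries came from CD4+ T lymphocytes of SD rats, 8 to 10 weeks old, whose peripheral blood was sampled, with 3 libraries in each of 3 groups. The normal group was healthy rats, the model group was CIA rats, and the combination group was CIA rats that had received a compound combination over 4 weeks. CIA was read as collagen-induced arthritis, an immunisation model of joint inflammation, because the series concerns rheumatoid arthritis. Per the file headers, the normal and model libraries were processed under names that match their labels (N and M with the replicate number), whereas the combination libraries carried names starting with L1, and their group rests on the labels alone. The labels name neither the compounds nor the way CD4+ cells were selected, and they do not say whether each library was a separate animal, so the p-values speak only of variation among these libraries, which may be technical. Combination and model rats share the disease induction, while combination and normal rats differ in both induction and treatment.

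Chemokine receptors and the sphingosine 1-phosphate receptor S1PR1 couple to inhibitory G proteins and steer a cell towards their ligand. CCR7 draws naive and central memory T cells into lymph nodes, S1PR1 takes them out again into lymph and blood, and CXCR4 holds cells in CXCL12-rich sites such as bone marrow. CCR4, CCR6 and CXCR3 are found on differentiated helper cells and lead them to inflamed tissue, CCR9 leads to the small intestine, and PSGL-1, the product of Selplg, lets cells roll on selectins. Circulating T cells change these receptors as they are activated or leave the naive state.

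Upstream sequences were matched by gene symbol in a RefSeq table of the rat build GRCr8, which held 4 of the 8 genes (S1pr1, Cxcr4, Ccr6 and Cxcr3). Those of the abundant receptors Cxcr4 and S1pr1, which differed in motif content, are printed. Each covers the 250 bases before the start of the gene, 5′ to 3′ on the minus strand, at chr13:42634289-42634538 for Cxcr4 and chr2:206314071-206314320 for S1pr1. Capitals mark CCGCCC, a GC box, in Cxcr4 and CACCC, the core that KLF-type factors bind, in S1pr1.
Cxcr4: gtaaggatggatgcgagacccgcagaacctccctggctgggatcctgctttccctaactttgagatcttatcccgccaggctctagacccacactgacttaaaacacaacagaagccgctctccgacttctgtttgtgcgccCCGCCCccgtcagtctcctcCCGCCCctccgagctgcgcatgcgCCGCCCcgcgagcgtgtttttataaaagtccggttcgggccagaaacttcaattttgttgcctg
S1pr1: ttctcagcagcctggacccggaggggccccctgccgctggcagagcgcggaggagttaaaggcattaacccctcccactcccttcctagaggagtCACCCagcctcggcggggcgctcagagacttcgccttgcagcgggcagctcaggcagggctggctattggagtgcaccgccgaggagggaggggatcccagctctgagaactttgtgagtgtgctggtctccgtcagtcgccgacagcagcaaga
The search covered both strands. CCGCCC was found 3 times in Cxcr4 and in 30.5% of 33469 promoter windows of the same length. CACCC was found 1 time in S1pr1, 1 time in Cxcr3, in neither Cxcr4 nor Ccr6, and in 49.2% of all windows, so a match is common. TATAAA matched 2 times in Cxcr4, once per strand in overlapping letters, and in 12.9% of windows. None of the 4 windows held the NF-kB motif, TGANTCA (AP-1) or ACGTG (hypoxia response core). These matches describe letters, not binding.

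Aligned depth was 7.52 to 10.1 gigabases per library. The 9 T cell markers summed to 3037 to 3786 TPM in normal, 2261 to 3010 TPM in model and 2593 to 2869 TPM in combination libraries, so every normal library lay above all others. Mean Cd4 was 222 TPM in normal and 121 TPM in each of the other groups, and Cd8a lay between 2.47 and 9.17 TPM over all libraries. In combination against normal, 6 of the 9 T cell markers were lower with no overlap of libraries, against 17.7% of all tested genes. Of the 9, 1 was called lower, where 3.62% of all tested genes were called: Lat, an adaptor of the T cell receptor (mean 242 against 418 TPM). Not all markers fell: mean Cd3g was 551 TPM in combination and 463 TPM in normal libraries, and mean Cd3d was 450 and 441 TPM. Markers of other blood cells also moved with the groups. The 10 monocyte markers summed to 29.8 to 183 TPM in normal, 76.2 to 200 TPM in model and 358 to 725 TPM in combination libraries. The 9 platelet markers summed to 14.97 to 36.4, 22.8 to 41.9 and 79.8 to 129 TPM in the same order, and the 6 erythroid markers to 58.9 to 1122, 2408 to 16213 and 261 to 865 TPM. Neutrophil markers lay at 14.9 to 35.3 TPM in normal libraries and at 1.01 to 9.09 TPM in the other groups. Cytotoxic and NK markers lay at 100.6 to 162, 49.9 to 73.8 and 80.9 to 106 TPM, B cell markers at 30.7 TPM or less, plasma cell markers at 17.8 TPM or less and dendritic cell markers at 5.34 TPM or less. Ncr1 and Ltf were under 0.1 TPM in every library, as was Xcr1. The part of these cells and of the T cell marker levels in the differences below was not tested, and in RNA of a cell population fewer cells of a type and less RNA per cell cannot be told apart. On the first principal component of the tested genes, which held 25.8% of the variance, model replicate 2 had a score of 0.484, within the combination libraries (-4.00 to 7.28), while model replicates 1 and 3 scored 40.2 and 60.4. On the second component (22.1% of the variance) it scored -28.3, next to model replicate 3 at -29.4 and away from the combination libraries at 36.3 to 45.2. Called differences of the receptors are also given without model replicate 2.

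By TPM, a scale that divides by transcript length, Cxcr4 was the most abundant of the 8 receptors at 1868 to 8045 TPM. S1pr1 followed at 985 to 1747 TPM and Ccr7 at 437 to 1568 TPM. Cxcr4 exceeded S1pr1 in 9 of 9 libraries, whereas S1pr1 exceeded Ccr7 in 8 of 9 and their TPM ranges overlapped. On exon coverage, described below, S1pr1 exceeded Ccr7 in 9 of 9. That scale divides by all exons of a gene, for Ccr7 including 1 of 2064 bases that was hardly covered. Coverage per aligned gigabase of the last Ccr7 exon was 1009, 1253 and 1593 in model libraries. There the 2510-base exon of S1pr1 had 797, 749 and 918, and its 61-base exon 1387, 1443 and 1636. In all normal libraries Ccr7 lay below both S1pr1 exons. The order of S1pr1 and Ccr7 thus depended on the measure. The receptors of differentiated helper cells were far lower, with Ccr4 at 12.3 to 36.7 TPM, Cxcr3 at 5.81 to 15.3 TPM and Ccr6 at 1.73 to 8.82 TPM. The order Ccr4, Cxcr3, Ccr6 held in 9 of 9 libraries although the ranges of neighbours overlapped across libraries. Ccr9 was lowest at 0.463 to 1.08 TPM, below Ccr6 in every library. Per length, transcripts of Cxcr4, S1pr1 and Ccr7 were thus far more abundant in these cells than those of the receptors for inflamed tissue or gut.

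**Figure D1:**
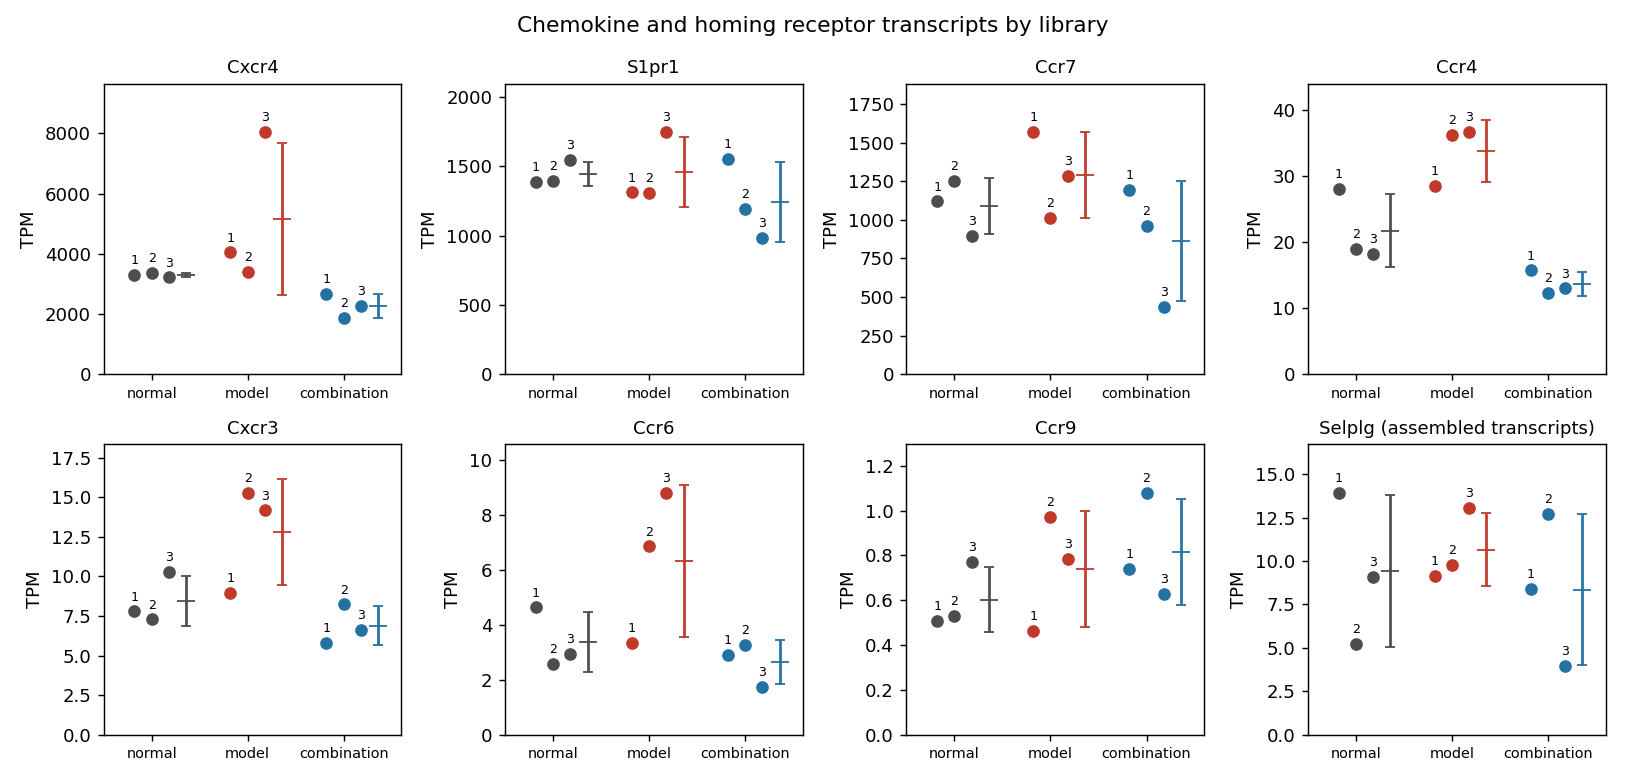
TPM of the 8 receptor genes in each library (points, numbered by replicate) for the normal, model and combination groups, with the group mean and SD (bars); each panel has its own axis, which starts at 0, and Selplg is drawn with the transcripts of its locus assigned by exon overlap. Ccr4 and Cxcr4 lie higher in all 3 model than in all 3 normal libraries, and Ccr4, Cxcr4, Ccr6 and Cxcr3 lie lower in all 3 combination than in all 3 model libraries.

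Across the 6 tested receptors, the groups were compared in 1 limma fit over all tested genes on log2(TPM + 1), with Benjamini-Hochberg adjusted p under 0.05 as the threshold for a call. Between model and normal libraries 0 of 6 were called, where 4.2% of all tested genes were called. At an unadjusted p under 0.05 there were 2 of 6, against 26.4% of all tested genes. In 2 of 6 all model libraries lay above all normal libraries, against 18.5% of all tested genes. The median log2 fold change of the 6 was 0.53, and that of all tested genes was -0.0098. Between combination and model libraries 1 of 6 was called, Ccr4, where 3.9% of all tested genes were called. The 6 log2 fold changes lay between -1.24 and -0.24 with a median of -0.87, and the median of all tested genes was 0.033. At an unadjusted p under 0.05 there were 4 of 6, against 26.0% of all tested genes. In 4 of 6 all combination libraries lay below all model libraries, against 12.9% of all tested genes. Between combination and normal libraries 0 of 6 were called, where 3.62% of all tested genes were called, and 1 of 6 had an unadjusted p under 0.05, against 25.4% of all. In 2 of 6 all combination libraries lay below all normal libraries, against 17.7% of all tested genes. The median there was -0.36, against 0.041 over all tested genes. The 3 comparisons share libraries, so these counts are not independent of each other.

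**Figure D2:**
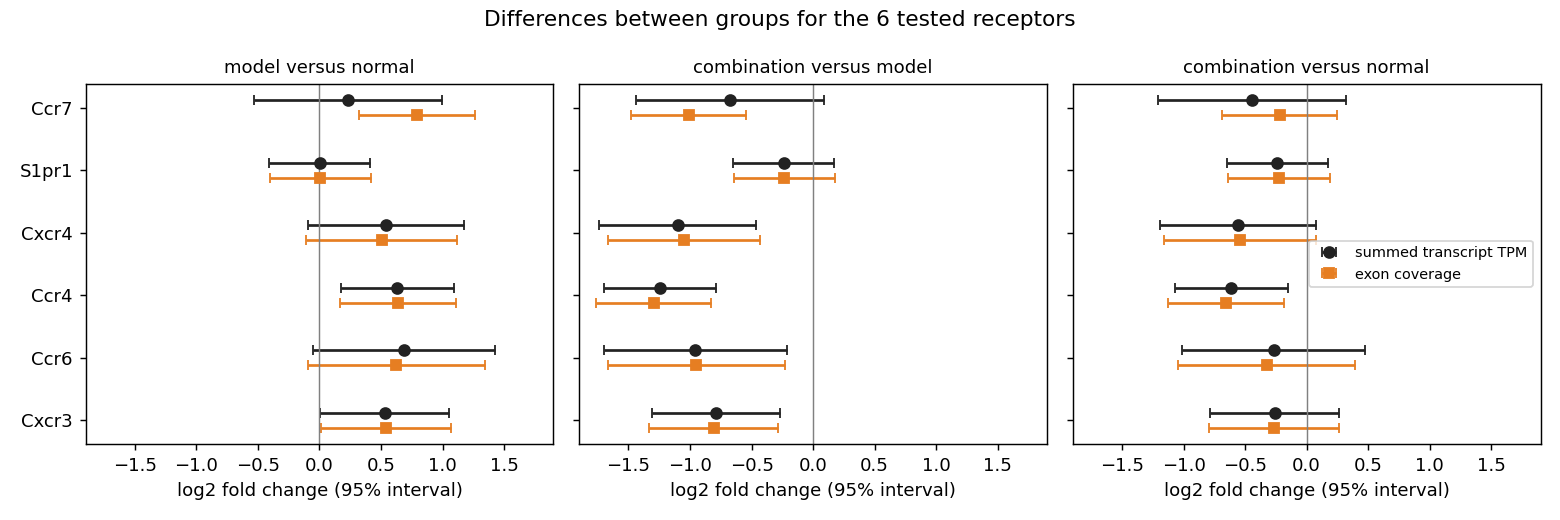
Log2 fold changes with 95% intervals from limma for the 6 tested receptors in the 3 comparisons, from summed transcript TPM (circles) and from exon coverage (squares); the line at 0 marks no difference. The scales give near-equal values for every receptor except Ccr7, whose model versus normal value is 0.23 on summed TPM and 0.79 on exon coverage.

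Ccr7, the receptor for the lymph node chemokines CCL19 and CCL21, lies on the minus strand of rn6 chromosome 10 at 87057136 to 87069708 with its assembled forms. Its summed TPM was 1118, 1250 and 897 in normal replicates 1 to 3, 1568, 1012 and 1281 in model replicates, and 1192, 957 and 437 in combination replicates. The groups overlapped on this scale. On the log2 scale the differences were 0.23 (SE 0.339, adjusted p = 0.696) in model against normal, -0.67 (SE 0.339, adjusted p = 0.246) in combination against model and -0.44 (adjusted p = 0.450) in combination against normal. Without combination replicate 3, the library with the lowest sum, the last 2 values were -0.25 (adjusted p = 0.528) and -0.014 (adjusted p = 0.977), and the model against normal value lay between 0.078 (without model replicate 1) and 0.39 (without model replicate 2). These sums joined 3 transcripts of unequal length. The reference transcript has 3 exons and 1426 bases. An assembled transcript of 3476 bases adds a first exon of 2064 bases, and another of 2091 bases starts at an alternative first exon.

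The transcript that received the reads differed between libraries of the same group. The 3476-base form held 27.9% of Ccr7 TPM in normal replicate 3, 71.8% in model replicate 2, 85.9% in model replicate 3 and 83.6% in combination replicate 3, and at most 0.064% in the other libraries. Its own first exon was covered less than 1 time per aligned gigabase in every library (0.0780 to 0.829). Coverage of its other exons was up to 1560 in the same unit. TPM divides by transcript length, so reads placed on this form counted for less than reads placed on the shorter reference form.

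The last exon of Ccr7 (87057136 to 87058411, 1276 bases) belongs to all 3 transcripts, and its coverage does not depend on that placement. Coverage per aligned gigabase was 699, 767 and 809 in normal, 1009, 1253 and 1593 in model, and 656, 581 and 650 in combination libraries. All 3 model libraries lay above all normal libraries, and all 3 combination libraries lay below all normal libraries. An unnamed locus on the plus strand at 227 to 781 TPM overlaps this exon, and the labels do not say that strand was kept. The middle exon (87061439 to 87061488, 50 bases), which no other listed locus overlaps, had 604, 700 and 733 in normal, 945, 1289 and 1641 in model, and 649, 537 and 662 in combination libraries. There too the model libraries were highest, while normal and combination libraries overlapped.

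Gene coverage over the union of exons, a scale added after the data were seen, was then fitted with limma for all genes. Ccr7 was lower in combination than in model libraries by 1.01 log2 units (value -1.01, SE 0.208, 95% interval -1.48 to -0.54, adjusted p = 0.0396), on a scale where 4.09% of genes were called. On the same scale model against normal differed by 0.79 (SE 0.208, adjusted p = 0.0644), and the value was -0.22 (adjusted p = 0.546) in combination against normal. With model replicate 2 left out the combination against model value was -1.02 (adjusted p = 0.0422), and with model replicate 1 left out it was -1.22 (adjusted p = 0.0403). The call ended without each of the other libraries. The adjusted p was 0.0591 to 0.0647 without a normal library, at an unchanged value of -1.01. It was 0.0817 without model replicate 3 (value -0.79), and 0.0677, 0.124 and 0.0702 without combination replicates 1, 2 and 3. The call also ended, at the value of -1.01, when only the 2 groups compared were fitted (adjusted p = 0.102).

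**Figure D3:**
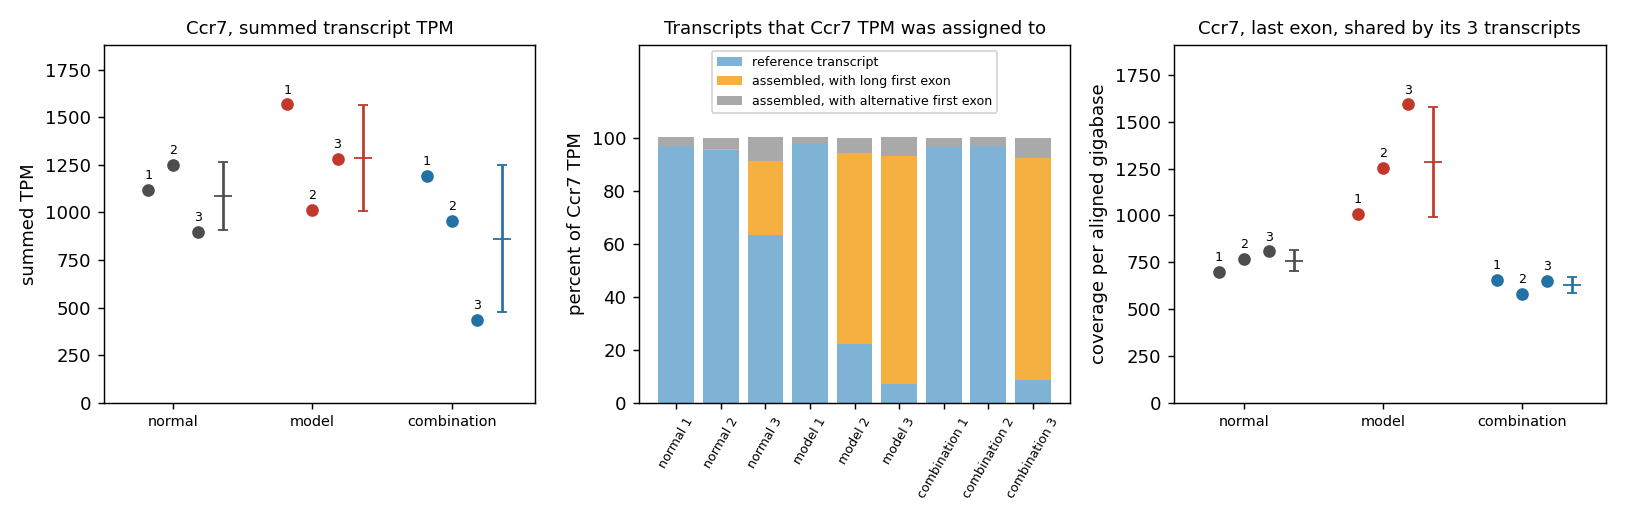
Ccr7 in each library: summed transcript TPM (left, with group mean and SD), the percent of that TPM on each of the 3 transcripts (middle), and coverage per aligned gigabase of the last exon, which the transcripts share (right, with group mean and SD). The groups overlap on the left, while on the right the model libraries lie at 1009 to 1593, above the normal libraries at 699 to 809 and the combination libraries at 581 to 656.

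S1pr1, which senses sphingosine 1-phosphate in blood and lymph and is needed to leave lymphoid organs, lies on the minus strand of rn6 chromosome 2 at 218654554 to 218658761 and has 1 listed transcript. Its TPM was 1388, 1395 and 1546 in normal, 1311, 1309 and 1747 in model, and 1553, 1190 and 985 in combination libraries. The groups overlapped in all comparisons. The model against normal log2 fold change was 0.00033 (95% interval -0.41 to 0.41, adjusted p = 1.0). Combination against model was -0.24 (95% interval -0.65 to 0.17, adjusted p = 0.446), and combination against normal was -0.24 (adjusted p = 0.448). The last 2 values were both -0.41 without combination replicate 1 and -0.085 and -0.084 without combination replicate 3, and combination against model was -0.10 without model replicate 3. Changes within these intervals could not be resolved with 3 libraries a group.

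Cxcr4, the receptor for CXCL12, lies on the minus strand of rn6 chromosome 13, where its main reference transcript covers 45314933 to 45318878 with 2 exons. Its TPM was 3309, 3369 and 3214 in normal, 4043, 3396 and 8045 in model, and 2669, 1868 and 2255 in combination libraries. The groups did not overlap: model libraries were highest, combination libraries lowest, and model replicate 2 lay only just above the normal libraries. The mean was 3297 ± 78.4 (SD, n = 3) in normal, 5161 ± 2518 in model and 2264 ± 400 TPM in combination libraries. None of the comparisons passed the threshold. Combination against model had a log2 fold change of -1.10 (SE 0.282, 95% interval -1.73 to -0.46, adjusted p = 0.0602), model against normal 0.54 (SE 0.282, adjusted p = 0.251) and combination against normal -0.56 (SE 0.282, adjusted p = 0.251).

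The Cxcr4 difference between combination and model libraries passed the threshold without model replicate 2 (-1.35, adjusted p = 0.0315) and with the authors' FPKM in place of TPM (-1.07, adjusted p = 0.0388). Both settings called more genes in this comparison, 1187 of 14485 and 1317 of 12693, against 565 of 14485 in the main fit. The Cxcr4 difference was -0.73 (adjusted p = 0.0874) without model replicate 3, the library with the highest value. Model against normal was then 0.17 (adjusted p = 0.613). In normal replicate 1 and combination replicate 2, 64.7% and 64.9% of Cxcr4 TPM sat on an assembled transcript that extends to 45260500, and close to 0 in the other libraries. Exon coverage, which does not depend on this placement, gave -1.05 (adjusted p = 0.0600), and on that scale combination against normal (-0.54) passed the threshold when only these 2 groups were fitted (adjusted p = 0.0446) and not in the fit of 3 groups (adjusted p = 0.246). An unnamed locus on the opposite strand overlapped Cxcr4 at 0.537 to 74.1 TPM.

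Ccr4, the receptor for CCL17 and CCL22 on skin-homing, type 2 helper and regulatory T cells, lies on the minus strand of rn6 chromosome 8 at 122530624 to 122532070. It was the only one of the 6 tested receptors called on summed TPM. Its TPM was 28.1, 18.9 and 18.2 in normal, 28.5, 36.3 and 36.7 in model, and 15.7, 12.3 and 13.0 in combination libraries. All combination libraries lay below all others, and all model libraries lay above all normal ones, although model replicate 1 and normal replicate 1 were nearly equal. Ccr4 fell from 33.8 ± 4.64 (SD, n = 3) in model to 13.7 ± 1.81 TPM in combination libraries, a log2 fold change of -1.24 (SE 0.203, 95% interval -1.70 to -0.79, adjusted p = 0.0279). The normal mean was 21.7 ± 5.51 TPM. Model differed from it by 0.63 on the log2 scale (SE 0.203, adjusted p = 0.0988) and combination by -0.61 (SE 0.203, adjusted p = 0.109).

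Without model replicate 2 the fall of Ccr4 was -1.19 (adjusted p = 0.0283). The call ended, with an unchanged direction, without normal replicate 1 (adjusted p = 0.05002) or 2 (adjusted p = 0.0504) and with model replicate 3 left out (-1.18, adjusted p = 0.0770). The same held for combination replicates 1, 2 and 3 (-1.34, -1.18 and -1.21, adjusted p = 0.0553, 0.0818 and 0.0525). Most Ccr4 signal lay on assembled transcripts that extend over 122523155 to 122536064, and the 1-exon reference transcript had at most 1.81 TPM. Exon coverage gave -1.30 (adjusted p = 0.0252).

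Cxcr3, the receptor for the interferon-induced chemokines CXCL9, CXCL10 and CXCL11 and a marker of type 1 helper cells, lies on the minus strand of rn6 chromosome X at 71614346 to 71616997. Its TPM was 7.80, 7.28 and 10.3 in normal, 8.98, 15.3 and 14.2 in model, and 5.81, 8.24 and 6.61 in combination libraries. All combination libraries lay below all model libraries, and other groups overlapped. Combination against model had a log2 fold change of -0.79 (SE 0.232, 95% interval -1.31 to -0.27, adjusted p = 0.0814). Model against normal had 0.53 (adjusted p = 0.185) and combination against normal -0.26 (adjusted p = 0.519), which was -0.13 without normal replicate 3 and -0.16 without combination replicate 1.

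Ccr6, the receptor for CCL20 and a marker of type 17 helper cells, lies on the minus strand of rn6 chromosome 1 at 53065025 to 53087474. Its TPM was 4.64, 2.596 and 2.95 in normal, 3.34, 6.86 and 8.82 in model, and 2.92, 3.29 and 1.73 in combination libraries. All combination libraries lay below all model libraries, by a narrow margin at model replicate 1. Combination against model had a log2 fold change of -0.96 (SE 0.329, 95% interval -1.70 to -0.21, adjusted p = 0.114). Model against normal had 0.69 (adjusted p = 0.217), which was 0.44 without model replicate 3. Combination against normal had -0.27 (adjusted p = 0.649), which was -0.075 without normal replicate 1 and -0.074 without combination replicate 3.

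Ccr9, the receptor for CCL25 of the small intestine, lies on the plus strand of rn6 chromosome 8 at 132828091 to 132842130. Its TPM was 0.510, 0.531 and 0.770 in normal, 0.463, 0.971 and 0.785 in model, and 0.739, 1.08 and 0.627 in combination libraries. The groups overlapped throughout. Exact two-sided permutation tests gave p = 0.6 for model against normal, p = 0.8 for combination against model and p = 0.3 for combination against normal, where 0.1 is the smallest p that 3 libraries against 3 allow.

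Selplg encodes PSGL-1, the ligand of P-selectin, and lies on the plus strand of rn6 chromosome 12 at 48577905 to 48579196. Its reference transcript was listed at 0 in all 9 libraries, because the signal of its locus sat on assembled transcripts of a locus that also carries the name Tmem119. With assembled transcripts assigned by exon overlap, a choice added after the data were seen, Selplg had 13.9, 5.21 and 9.09 TPM in normal, 9.16, 9.78 and 13.1 in model, and 8.38, 12.7 and 3.99 in combination libraries. These transcripts differ in length, and which of them held the signal changed between libraries. A 6993-base form had 7.67 TPM in normal replicate 1 and a 6068-base form 10.8 TPM in combination replicate 2, each 0 elsewhere. TPM depends on this placement, as for Ccr7, and exon coverage was not computed for this assignment. On this scale the groups overlapped, and model against normal had a log2 difference of 0.24 (exact two-sided permutation p = 0.6). Combination against model had -0.42 (exact p = 0.4) and combination against normal -0.18 (exact p = 0.7). An unnamed locus on the opposite strand overlapped it at 6.22 to 15.4 TPM.

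Genes that act with these receptors were taken from 7 lists, of which 132 genes were in the tables and 99 were tested. Of these 99, 7 were called higher and 0 lower in model than in normal libraries (7.07%, against 4.2% of all tested genes). In combination against model libraries 2 were higher and 6 lower (8.08%, against 3.9%), and in combination against normal libraries 1 was higher and 5 lower (6.06%, against 3.62%). The lists were chosen with earlier results of these data known.

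Among 6 tested receptors of other chemokines, 1 was called higher in model than normal and 1 lower in combination than model libraries (medians 0.87, -0.40 and 0.10 in the 3 comparisons, in the order model against normal, combination against model, combination against normal). This was Cxcr5, which follows CXCL13 into B cell follicles. Its TPM was 4.26, 5.08 and 5.38 in normal, 9.26, 15.5 and 19.7 in model, and 5.53, 5.24 and 3.61 in combination libraries. All model libraries were highest. Cxcr5 rose in model libraries (log2 fold change 1.37, adjusted p = 0.0316) and was lower in combination than in model libraries (-1.41, adjusted p = 0.0343). Ccrl2, an atypical receptor that binds chemerin, had 14.3 TPM in combination and 4.35 TPM in normal libraries without passing the test (1.62, adjusted p = 0.153).

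Ccl17, Ccl19, Ccl20, Ccl21, Ccl22 and Cxcl9, ligands of receptors described above, were not matched by symbol. Cxcl12 and Ccl25 were too low to be tested. Of 7 tested chemokine ligands, 0 were called between model and normal libraries, and 1 was higher in combination libraries in each of the other comparisons (medians 0.45, 0.67 and 1.12). This was Pf4, a platelet chemokine and one of the platelet markers above. Pf4 was at 49.8 to 89.4 TPM in combination and at 6.57 to 26.6 TPM in all other libraries, a log2 fold change of 1.96 (adjusted p = 0.0465) against model and 2.41 (adjusted p = 0.0320) against normal.

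Of 9 tested sphingosine 1-phosphate receptors and enzymes, S1pr2 was called higher in model than in normal libraries and Sphk1 lower in combination than in normal libraries (medians 0.099, 0.28 and 0.32). S1pr2, which restrains migration where S1PR1 promotes it, had 0.625, 0.502 and 0.419 TPM in normal and 2.41, 1.80 and 6.58 TPM in model libraries (1.46, adjusted p = 0.0483). It was at 0.421 to 0.856 TPM in combination libraries, a difference from model that did not pass (-1.35, adjusted p = 0.0575). Sphk1, a kinase that makes sphingosine 1-phosphate, had 21.1, 18.4 and 20.3 TPM in normal and 9.49, 7.37 and 3.78 TPM in combination libraries (-1.48, adjusted p = 0.0497), and on exon coverage its adjusted p was 0.0649. In model libraries Sphk1 had 10.8, 19.3 and 8.28 TPM, which overlapped both other groups. S1pr5 had 0.777 to 0.964 TPM in model and 3.33 to 7.28 TPM in combination libraries and did not pass (1.80, adjusted p = 0.0574).

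The 11 tested genes of selectins and of selectin ligand glycosylation had medians of 0.24, -0.66 and -0.022, with 2 higher in model than normal, 2 lower in combination than model and 1 lower in combination than normal libraries. Chst2, a sulfotransferase that sulfates the sugars selectins bind, had 273, 254 and 296 TPM in normal, 1054, 595 and 1700 in model, and 419, 306 and 231 in combination libraries. The model libraries did not overlap either of the other groups. Chst2 rose in model libraries (1.896, adjusted p = 0.0292) and was lower in combination than in model libraries (-1.72, adjusted p = 0.0382). Tpst2, which sulfates tyrosines of PSGL-1 and of chemokine receptors, had 35.8 to 39.4 TPM in normal, 60.7 to 84.1 in model and 27.3 to 38.9 in combination libraries (0.94, adjusted p = 0.0303, and -1.09, adjusted p = 0.0279). Cd44, a hyaluronan receptor that also carries selectin ligands, fell from 151 ± 10.6 in normal to 71.9 ± 17.8 TPM in combination libraries (SD, n = 3; -1.09, adjusted p = 0.0393). In model libraries Cd44 had 98.1, 112 and 150 TPM, above all combination libraries and overlapping the normal ones.

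Of 11 tested homing integrins, 1 was called in combination against normal libraries and 0 in the other comparisons (medians -0.50, 0.66 and 0.21). Itgb7, which pairs with alpha 4 integrin to bind the gut addressin MAdCAM-1, had 43.5, 45.2 and 52.1 TPM in normal, 16.1, 46.2 and 17.99 in model, and 13.4, 14.9 and 11.0 in combination libraries. Model replicate 2 lay among the normal libraries, and the other model libraries lay close to the combination libraries. Itgb7 fell by 1.77 on the log2 scale in combination against normal libraries (adjusted p = 0.0375), while model against normal had -0.94 (adjusted p = 0.125).

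The 33 tested genes of receptor signalling and desensitisation had medians near 0 (-0.093, 0.084 and -0.066). Rgs1 and Rgs16, which shorten G protein signals of chemokine receptors, were the 2 called higher in model than in normal libraries. Rgs1 had 605, 590 and 707 TPM in normal, 1383, 986 and 1425 in model, and 843, 1155 and 773 in combination libraries (model against normal 0.98, adjusted p = 0.0335). Rgs16 had 1.06 to 1.60 TPM in normal, 13.1, 4.98 and 37.5 in model, and 0.988 to 2.49 in combination libraries. It rose in model libraries (2.65, adjusted p = 0.0377) and was lower in combination than in model libraries (-2.53, adjusted p = 0.0458). Rgs18, a family member abundant in platelets, was higher in combination than in model libraries (mean 1.96 against 0.435 TPM, log2 fold change 1.06, adjusted p = 0.0456). Cd69, which binds S1PR1 and removes it from the cell surface, had 197, 228 and 210 TPM in normal, 147, 127 and 116 in model, and 88.4, 83.8 and 152 in combination libraries (combination against normal -1.01, adjusted p = 0.0460).

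Of 22 tested transcription factors that control homing receptors, 1 was higher in model than normal, 2 were lower in combination than model and 1 was lower in combination than normal libraries (medians 0.32, -0.21 and 0.15). Klf2, which drives S1pr1 transcription in resting T cells, had 239, 365 and 375 TPM in normal, 359, 232 and 376 in model, and 143, 91.5 and 111 in combination libraries. Klf2 fell in combination libraries, by 1.47 on the log2 scale from model (adjusted p = 0.0298) and by 1.49 from normal (adjusted p = 0.0302), and the combination libraries lay below all others. S1pr1 had a log2 fold change of -0.24 in both comparisons and did not pass, and a link between the 2 genes was not tested. Rora, a factor of type 17 helper and innate lymphoid cells, rose from 7.21 ± 0.160 in normal to 19.6 ± 9.59 TPM in model libraries (1.23, adjusted p = 0.0491, and 0.0619 on exon coverage). Gfi1, a repressor with roles in T cell differentiation, was lower in combination than in model libraries (4.43 ± 0.886 against 11.2 ± 4.03 TPM, -1.13, adjusted p = 0.0438).

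**Figure D4:**
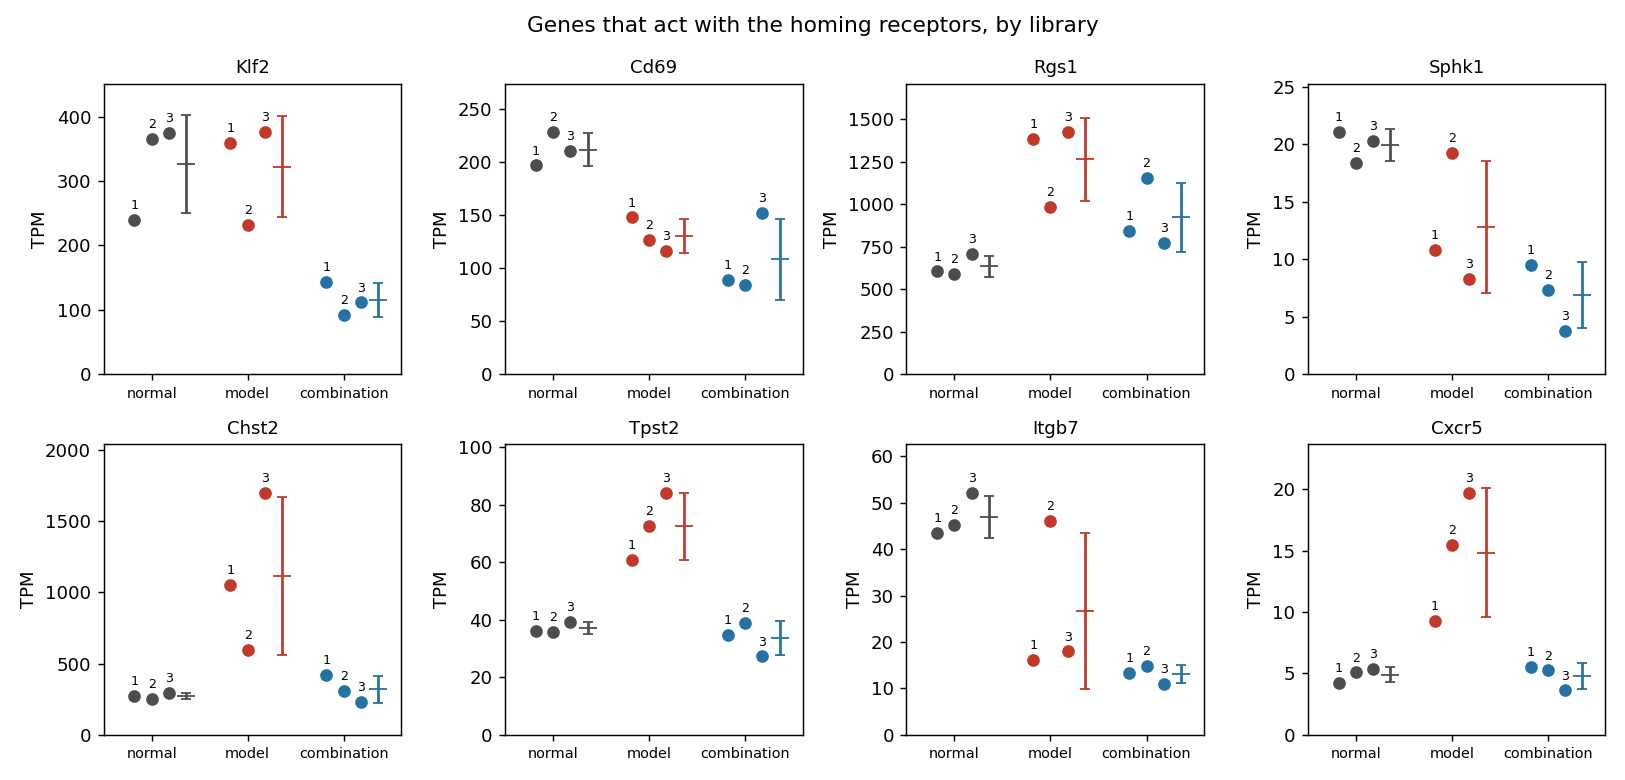
TPM of 8 genes that act with the homing receptors in each library (points, numbered by replicate), with the group mean and SD (bars); each panel has its own axis, which starts at 0. Klf2 lies at 91.5 to 143 TPM in combination libraries and at 232 to 376 TPM in the others, and Chst2, Tpst2 and Cxcr5 are highest in the 3 model libraries.

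These partner calls lay near the threshold. Of the 21, 21 were kept without model replicate 2, where Chst2 had 2.29 in model against normal and -2.11 in combination against model, and Rgs16 had 3.30 and -3.18. By contrast, 0 were kept without normal replicate 1 or without normal replicate 2. Calls over all genes moved as well, in the 3 comparisons in the order above. They were 2654, 1187 and 1438 without model replicate 2, 47, 20 and 24 without normal replicate 1, and 18, 26 and 33 without normal replicate 2. Leaving out each of the other libraries kept 4 (normal 3), 7 (model 1), 4 (model 3), 4, 1 and 8 (combination 1, 2 and 3). All 21 kept their direction in every alternative tried.

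The named genes whose log2(TPM + 1) ran most closely with each receptor over the 9 libraries were found among 8049 named genes that averaged 5 TPM or more. The points share depth and groups, so the coefficients are descriptions. Cxcr4 was closest to LOC100359583 (Pearson r = 0.98), Sertad1 (0.97) and Gmeb1 (0.97). Ccr4 was closest to LOC103694875 (0.97), Mrpl27 (0.97) and RGD1306215 (0.96), and S1pr1 to Ap2b1 (0.95), Hsf1 (0.95) and Phf20l1 (0.93). For Ccr7 the list changed with the scale: Ctnnbl1 (0.94), Denr (0.92) and Vps16 (0.91) on TPM, and Gfod1 (0.98), Umps (0.97) and Mafk (0.97) on exon coverage. Ccr6 was closest to Gtpbp1 (0.96) and Mfge8 (0.95), Cxcr3 to Mtf1 (0.94), Gpatch2l (0.93) and Wbp11l1 (0.90), and Ccr9 to Rn50_2_2782.1 (0.93), Nudt4 (0.87) and Stx11 (0.87).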

How the data were processed

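Total RNA of CD4+ T cells from rat blood was made into libraries with an NEBNext Ultra kit, per the labels. The submitters' processing notes name bcl2fastq, HISAT2 and rn6, with no versions given in the sources used here. Per the file headers, StringTie 1.3.3b estimated a merged transcript set, and the deposited tables give coverage, FPKM and TPM of 80092 transcripts (41066 reference, 39026 assembled) among other text attributes. Neither read counts nor the read length was at hand, hence counting intervals are left out.

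Transcript TPM was summed to gene units. The test was limma 3.58.1 (R 4.3.3) for units averaging 1 TPM or more, after log2(TPM + 1), with 3 groups in 1 fit, an intensity trend and Benjamini-Hochberg adjusted p under 0.05; residual degrees of freedom were 6 and prior ones 3.20. A fold change on this scale understates that of low genes. Exon coverage is aligned bases over the exon union of a gene, rescaled to the total of TPM. Tables used Python 3.11.15, pandas 2.3.3 and numpy 2.4.6, and figures matplotlib 3.10.9. Data of model against normal libraries were simulated over 14485 genes, of which 200 were changed. The recovered share was 4.4% at 1.5-fold, 36.8% at 2-fold, 84.4% at 4-fold and 92.8% at 8-fold, and 5.97% of calls were false.

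The receptors, lists and tests were chosen with earlier results of these data known. All 8 receptors were described; of each list, up to 4 genes per comparison past the threshold by smallest p, or else the 2 with the smallest p, were drawn up and the main ones printed. For each receptor the 3 named genes of highest Pearson r were taken, of which 1 is not reported here. Of the listed genes, 23 were not matched by symbol. Genes that share a locus with another name (Grk2 and Grk6, for example) are understated. Exon coverage and the exon overlap assignment were added after the data were seen. Alternatives were pseudocounts of 0.1 and 5 TPM, other filters, FPKM, median-ratio scaling (factors 0.883 to 1.13), leaving out haemoglobin, ribosomal protein and mitochondrial genes, other fits, reference transcripts only, locus sums and omission of each library.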

Additional observations from a re-analysis of the deposited data

How the results depend on the processing

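Of the log2 fold changes of the 6 tested receptors under all alternatives, 389 kept their direction and side of the threshold, 8 lost a call (all Ccr4, combination against model), 3 gained one (Cxcr4 2 times and Ccr7 1 time, combination against model) and 8 changed sign. With reference transcripts only, Ccr7 was -1.50 in model against normal and 0.11 in combination against model, and Ccr6 was 0.11 in combination against normal; this setting leaves out the assembled forms that held most of Ccr7 in some libraries. The model against normal value of S1pr1, near 0, was -0.068 with FPKM, -0.072 when ribosomal protein, mitochondrial and haemoglobin genes were left out, and -0.14 to 0.070 when 1 library was left out (-0.027, -0.023 and -0.14 for normal replicates 1 and 2 and model replicate 3); the cause was not tested.

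The number of the 6 receptors called in combination against model, 1, was 2 with FPKM, 2 with exon coverage, 0 with only the 2 groups compared, 0 with a replicate block, 0 with reference transcripts only (5 tested) and 0 to 2 when 1 library was left out. In the other comparisons it was 0 in these settings. With exon coverage and only the 2 groups compared together, Cxcr4 passed in combination against normal (-0.54, adjusted p = 0.0446). The Ccr7 call on exon coverage ended with the replicate block (adjusted p = 0.0786).

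Over all genes, calls in model against normal, combination against model and combination against normal were 609, 565 and 525. They were 80, 150 and 168 with no filter, 1085, 1317 and 1179 with FPKM, 1288, 1477 and 1384 with median-ratio scaling, and 1061, 1383 and 1217 when ribosomal protein, mitochondrial and haemoglobin genes were left out. They were 90, 28 and 1234 with only the 2 groups compared, 69, 10 and 21 with the replicate block, 187, 142 and 81 with reference transcripts only, and 305 in combination against normal with a mean of at least 5 TPM. Leaving out 1 library gave 18 to 2654, 20 to 1187 and 23 to 1438 calls. Of combination against model calls, 293 were higher and 272 lower; leaving out the same genes, which shifted the overall median to 0.13, gave 922 and 461. In combination against normal, 295 were higher and 230 lower; median-ratio scaling gave 654 and 730, and leaving out those genes gave 783 and 434.

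No pairing by replicate number was seen over all tested genes: residuals of equally numbered libraries correlated at -0.12 to 0.067, and 2 of 9 libraries correlated best with their own number. Pairing that acts on some genes only would not show in these values. With 3 libraries a group, small changes were rarely called in the simulation, which recovered 4.4% of 1.5-fold changes. It changed 200 of 14485 genes and used normally distributed noise, so its shares need not hold for these data.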
